A study of Mus musculus with 6 samples.

Results

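The mitosis and spindle genes are 42 listed genes for mitotic cyclins and kinases, the spindle checkpoint, centromeres and kinetochores, spindle kinesins and cytokinesis. They were chosen by name, with earlier results of these data known. All 42 were found among the 14254 genes of the deposited table and passed the filter on low values. RNA was sequenced from organoids, small clusters of tumour cells grown in gel, of a mouse pancreatic ductal adenocarcinoma line named KPF_5.3G. Of the 6 libraries, 3 came from organoids with a control short hairpin RNA (shCtrl, genotype labelled WT) and 3 from organoids with a lentiviral hairpin against Jag1 (shJag1_3, genotype labelled Jag1 knockdown). All 6 share the same line and the same culture medium, which holds Noggin, R-spondin-1, gastrin and the growth factors EGF and FGF-10. No other treatment is listed, and the knockdown is represented by this hairpin alone. Jag1 is a transmembrane ligand of Notch receptors, and the series asks what it does in CD9-high tumour-initiating cells of a hybrid epithelial and mesenchymal state.

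As background, Cdk1 bound to cyclins A and B drives a cell into mitosis, and Aurora and Polo kinases then build the spindle. The spindle checkpoint holds the anaphase-promoting complex (APC/C) inactive until every kinetochore is attached, after which Cdc20 activates it, cyclin B is destroyed and the cell divides. The genes are transcribed mainly in the G2 and M phases. Their promoters are known for the cell cycle genes homology region (CHR), which binds the MuvB complex (in DREAM it represses, and with B-Myb and Foxm1 it activates), and for CCAAT boxes, which bind NF-Y. Mitotic transcripts are commonly read as a measure of how many cells in a culture are cycling. In bulk RNA, fewer cycling cells and less RNA per cycling cell cannot be told apart.

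RefSeq promoters of GRCm38.p6, from 250 bases before to 50 after the start site, were listed for 36 of the 42 genes. The 150 bases just before the start site are shown for 4 abundant members that hold both motifs, since these sequences show the elements the group shares. Capitals mark TTTGAA or TTCGAA (CHR) and CCAAT (NF-Y box) on either strand, so that TTCAAA and ATTGG are the same elements read on the opposite strand.
Ube2c (chr2:164769779-164769928, plus strand): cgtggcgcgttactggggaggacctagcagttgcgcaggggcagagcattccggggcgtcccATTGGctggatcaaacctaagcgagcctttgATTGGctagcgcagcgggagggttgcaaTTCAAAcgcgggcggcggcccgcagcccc
Cdc20 (chr4:118437344-118437493, minus strand): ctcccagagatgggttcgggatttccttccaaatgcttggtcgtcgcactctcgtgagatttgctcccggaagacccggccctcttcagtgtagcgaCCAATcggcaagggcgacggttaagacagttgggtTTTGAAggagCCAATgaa
Mki67 (chr7:135716380-135716529, minus strand): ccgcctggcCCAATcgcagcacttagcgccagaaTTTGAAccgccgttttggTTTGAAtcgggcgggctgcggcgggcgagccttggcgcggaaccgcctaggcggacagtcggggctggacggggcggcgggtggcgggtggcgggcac
Top2a (chr11:99024190-99024339, minus strand): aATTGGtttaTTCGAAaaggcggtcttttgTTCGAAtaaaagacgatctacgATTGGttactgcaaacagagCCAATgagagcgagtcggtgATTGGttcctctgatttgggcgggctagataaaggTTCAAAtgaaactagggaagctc

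Most members held these letters, more often than promoters at large. A CHR hexamer was found in 29 of the 36 genes (80.6%), a CCAAT box in 27 (75.0%) and both in 24 (66.7%). Among all 27025 genes of the promoter table the shares were 21.7%, 41.1% and 8.61%, and among the 10169 tested genes with a promoter 16.1%, 43.1% and 6.77%. At least 2 CCAAT boxes stood in 20 of the 36 promoters (55.6%), against 13.3% of all genes and 16.8% of the tested genes. The hexamer nearest to the start site began within 50 bases of it in 27 of the 29 genes, with a median position of 6 bases past the start. This was not counted over all promoters, so whether such a position is particular to the members was not tested. For CCAAT boxes the nearest began at a median of 28 bases before the start. A hexamer within 50 bases of the start is shown with its surroundings for 7 further members, each oriented to read TTTGAA in capitals.
Cdca3: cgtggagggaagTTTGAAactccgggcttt
Aurka: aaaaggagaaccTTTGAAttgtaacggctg
Plk1: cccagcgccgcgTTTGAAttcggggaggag
Cenpa: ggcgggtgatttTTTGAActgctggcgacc
Ccnb2: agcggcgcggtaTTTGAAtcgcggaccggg
Kif18b: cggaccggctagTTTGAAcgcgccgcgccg
Racgap1: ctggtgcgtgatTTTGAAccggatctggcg

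A match to these letters is a description and not a bound site. TTTGAA and CCAAT may overlap by the shared T, and each was counted where it occurred. DNA replication genes, which are transcribed earlier in the cycle, held a CHR hexamer in 6 of 32 promoters (18.8%) and both motifs in 15.6%. Cell cycle exit genes held a hexamer in 2 of 14 (14.3%). Lists of other mitosis genes, described further below, held a hexamer in 40% to 60% of promoters and both motifs in 20% to 46.2%. For the CCAAT box, Cdk1 regulators and late cell cycle transcription genes stood above the members, at 84.6%, and each other list below. The motifs were thus not particular to the members. Of the members called below, 18 of 22 with a promoter held a hexamer, and of those not called 11 of 14.

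**Figure D1:**
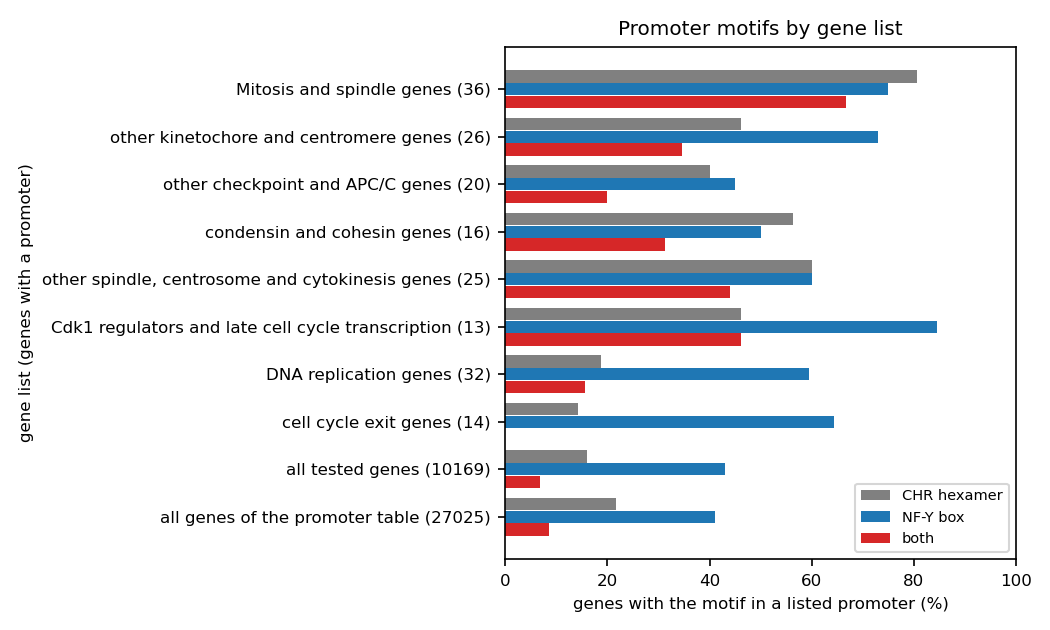
Share of genes (horizontal axis, %) whose listed promoter holds a CHR hexamer, an NF-Y (CCAAT) box or both, for each gene list (vertical axis, with the number of genes that have a promoter). The mitosis and spindle genes reach 66.7% for both motifs, against 8.61% of all genes in the promoter table.

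The libraries held 22110664 to 35010147 gene reads, and each member had at least 234 reads in every library. Values are normalised counts, and a pair is a knockdown and the control with the same replicate number. Jag1 read 412, 983 and 847 in controls 1, 2 and 3, then 226, 321 and 557 in knockdowns 1, 2 and 3, lower in each pair but with overlapping groups (exact two-sided permutation p = 0.2, where 0.1 is the smallest possible). All 9 epithelial and ductal markers were listed, with summed counts of 181440 to 247573 in controls and 243213 to 617747 in knockdowns. Of 20 acinar, fibroblast, immune and endothelial markers only Cela1, Pdgfra and Cd68 were listed, the first pair at no more than 47.4 normalised counts and Cd68 at 98.6 to 136 in controls and 117, 988 and 400 in knockdowns 1, 2 and 3. Cd68 and the epithelial sum were thus highest in knockdowns 2 and 3, and their part in the results below was not tested. Of the markers in that sum Sox9, Epcam and Krt18 did not share this order, and Sox9 was lowest in knockdown 3 (1464). In the first principal component both replicate 1 libraries stood apart from the other 4.

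Mitosis genes were low in controls 2 and 3 and high in the other 4 libraries. Summed over the 42 genes, controls 1, 2 and 3 held 143565, 43108 and 53005 normalised counts, and knockdowns 1, 2 and 3 held 148676, 117923 and 125765. The knockdown sum was thus 1.04-fold that of its control in pair 1, 2.74-fold in pair 2 and 2.37-fold in pair 3. Control 2 reached 30.0% and control 3 reached 36.9% of control 1, so that the control sums spanned a range that held the sums of knockdowns 2 and 3. Controls 2 and 3 were the 2 lowest libraries for 42 of 42 members, an order seen in 19.5% of all tested genes and noticed after the values were seen. The highest library was knockdown 1 for 24 members, control 1 for 11, knockdown 3 for 6 and knockdown 2 for 1.

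**Figure D2:**
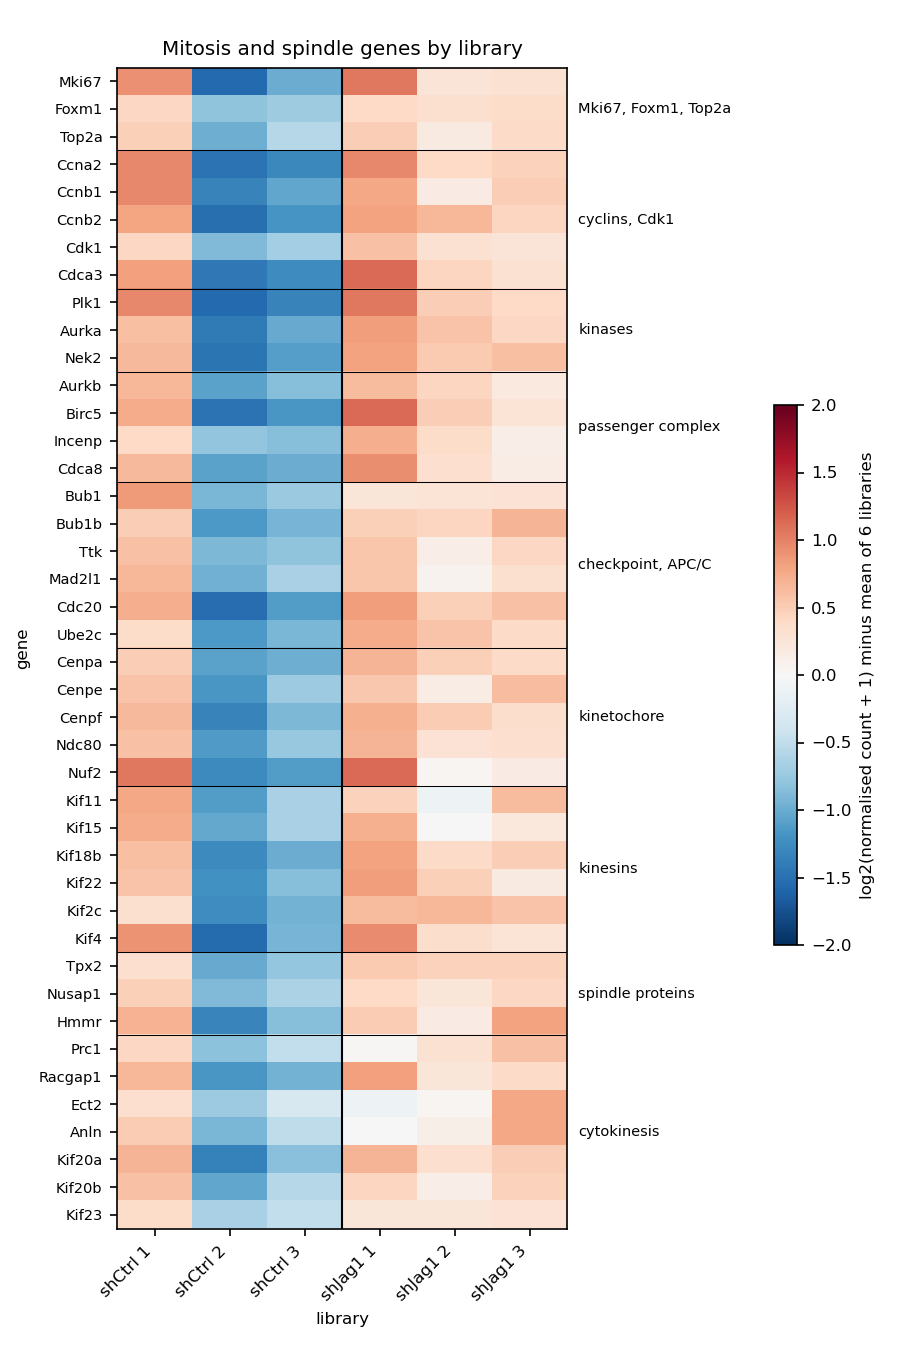
Colour gives the log2 of the normalised count plus 1 minus the mean of the 6 libraries for each gene (rows, by role) and library (columns). Controls 2 and 3 are blue for all 42 genes, while control 1 shares the red of the 3 knockdowns for nearly all.

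The group difference was positive for every member and, over all 6 libraries, passed no test without the replicate term. In limma the log2 changes, knockdown minus control, ran from 0.47 to 1.29 with a median of 0.95, beside a median of 0.00 over all tested genes. No member passed limma (0 of 42, adjusted p from 0.635 to 0.845; all tested genes 0%), and 7 had an unadjusted p under 0.05 (4.62% of all tested genes were higher at that p). DESeq2 without the term also called 0 in either direction, where 0.722% of all tested genes were called higher and 0.522% lower. At an unadjusted p under 0.05 it had 3 members (7.14%), near the 5.44% of all tested genes higher at that p. The groups did not overlap for 3 members, Ube2c, Kif2c and Tpx2, or 7.14%, near the 6.29% of all tested genes that did so in this direction. When the model also held a term for replicate number (a block), DESeq2 called 26 of 42 members higher and 0 lower, where 4.54% of all tested genes were called higher and 2.62% lower. Limma and edgeR with the same term called 0 members, at adjusted p from 0.149 to 0.436 and from 0.17 to 0.456, where each called 0.0143% of all tested genes higher. At an unadjusted p under 0.05 they had 36 and 35 members, where 11.25% and 10.79% of all tested genes were higher.

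These calls depended on pairs 2 and 3. Without pair 2 or without pair 3, DESeq2 with the term called 0 members, where 0.464% and 0.636% of all tested genes were called higher. At an unadjusted p under 0.05 those fits had 19 and 23 members, where 3.34% and 4.84% of all tested genes were higher. Without pair 1 it called 42 higher and 0 lower (9.07% of all tested genes higher and 6.15% lower). On replicates 2 and 3 only, limma called 40 of 42 higher and 0 lower, where 6.04% of all tested genes were called higher and 3.57% lower, the exceptions being Kif11 and Ect2. With control 1 alone left out, limma called 29 (1.5% of all tested genes higher). Every member was higher in pairs 2 and 3, as were 36.5% of all tested genes, and 35 members were over 2-fold higher in both, as were 5.77%. In pair 1 the members were spread around no change, 25 higher and 17 lower, with a median log2 change of 0.03 and a range from -0.60 to 0.39. Medians in pairs 2 and 3 were 1.48 and 1.28. The 25 members higher in all 3 pairs (59.5%) compare with 22.3% of all tested genes. Below, "rose" is shorthand for a call by DESeq2 with the replicate term. The main limma fit, and limma and edgeR with the same term, made no such call for any member.

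**Figure D3:**
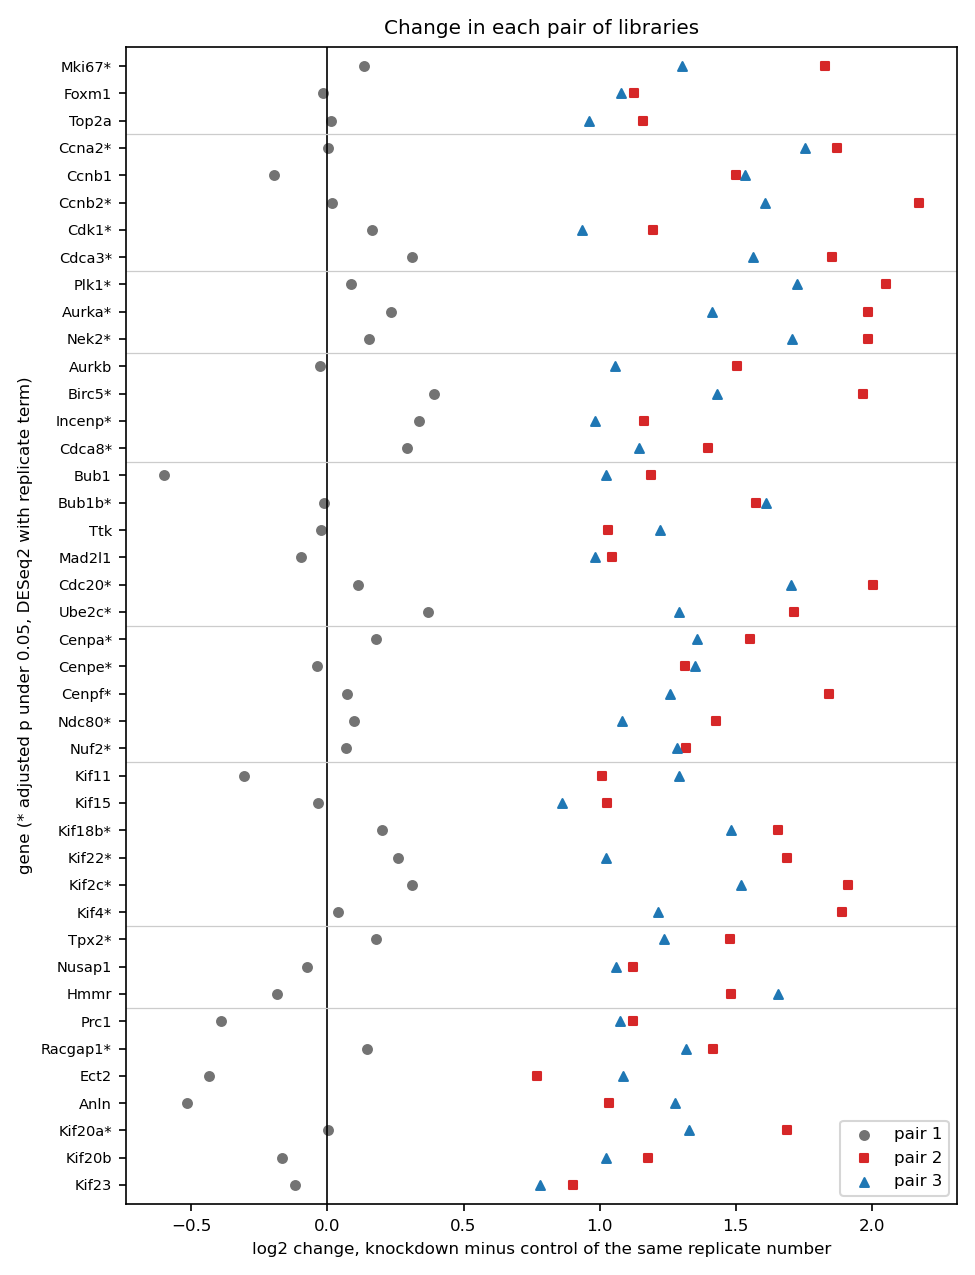
Log2 change of each gene (vertical axis, by role; * adjusted p under 0.05 in DESeq2 with the replicate term) between the knockdown and the control of the same replicate number (horizontal axis). Pairs 2 and 3 lie to the right of pair 1 for all 42 genes, and pair 1 lies between -0.60 and 0.39.

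With scaling by spike-in reads, the 26 calls of DESeq2 with the replicate term over 6 libraries were lost. The spike-in share of reads ran from 0.529% to 0.711% in controls and from 0.462% to 1.04% in knockdowns, and scaling by it moved the median DESeq2 change of all genes to -0.18. The members' median was then 0.77 and all 42 changes stayed positive, but 0 were called, where 0.286% of all tested genes were called higher. At an unadjusted p under 0.05 there were 8 members, where 2.5% of all tested genes were higher. The mitochondrial share of gene reads was 0.595%, 1.55% and 2.03% in controls 1, 2 and 3, then 0.555%, 1.02% and 1.20% in knockdowns 1, 2 and 3, highest in the libraries lowest in mitosis genes. Its part in the result was not tested.

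Of the proliferation marker Mki67, the transcription factor Foxm1 and the topoisomerase Top2a, Mki67 rose and the other two did not pass. Mki67, which coats mitotic chromosomes, read 9926, 1776 and 2637 normalised counts in controls 1, 2 and 3, then 10887, 6301 and 6510 in knockdowns 1, 2 and 3. Both replicate 1 libraries were highest and control 2 lowest. Its change was 1.09 (SE 0.31, adjusted p = 0.0116) in DESeq2 with the term, and 1.09 (SE 0.62, adjusted p = 0.758) in limma. Foxm1, which activates G2 and M phase genes, stood at 2319, 991 and 1064 in the controls. Its knockdown libraries were nearly level, at 2292, 2165 and 2249, and below control 1 (0.73, SE 0.27, adjusted p = 0.0799 in DESeq2 with the term). Top2a, which untangles sister chromatids, read 12292, 4487 and 5912 in controls, against 12398, 10018 and 11517 in knockdowns (0.71, SE 0.26, adjusted p = 0.066 in the same fit).

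Of the 5 genes for cyclins, Cdk1 and mitotic entry, 4 rose. Cdk1, the kinase that starts mitosis, read 4532, 1831 and 2107 normalised counts in controls 1, 2 and 3, then 5073, 4200 and 4029 in knockdowns 1, 2 and 3. Control 1 lay inside the range of the knockdowns, and Cdk1 rose by 0.77 (SE 0.25, adjusted p = 0.0303 in DESeq2 with the term). Its partner Ccnb1 (cyclin B1) did not pass: controls were at 4466, 902 and 1107 and knockdowns at 3901, 2555 and 3208. Control 1 was the highest library, and the log2 change of Ccnb1 was 0.96 (SE 0.34, adjusted p = 0.0614). Ccnb2 (cyclin B2) rose by 1.28 (SE 0.37, adjusted p = 0.0127 in DESeq2 with the term), from 3438, 694 and 877 to 3480, 3133 and 2671. That was 4.52-fold in pair 2, the highest of any member, 3.05-fold in pair 3 and 1.01-fold in pair 1. Ccna2 (cyclin A2) had control values of 5188, 960 and 1090 and knockdown values of 5197, 3519 and 3678. It rose by 1.23 (SE 0.35, adjusted p = 0.0123 in DESeq2 with the term) with pair 1 level at 1.00-fold. Cdca3, which helps to degrade the Cdk1 inhibitor Wee1, was also higher in pair 1, at 1.24-fold. Its counts went from 2512, 529 and 593 to 3114, 1913 and 1754 (1.25, SE 0.31, adjusted p = 0.00304 in the same fit).

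All 3 mitotic kinases at centrosomes rose, and their summed level differed most of the role groups, 4.04-fold in pair 2 and 3.09-fold in pair 3. Plk1, the Polo kinase of mitotic entry and centrosome maturation, read 4680, 813 and 954 normalised counts in controls 1, 2 and 3, then 4970, 3374 and 3154 in knockdowns 1, 2 and 3. Replicate 1 was high in both groups, and the change of 1.30 (SE 0.35, adjusted p = 0.00751 in DESeq2 with the term) was the largest of the 42. Aurka (Aurora A), which builds the spindle poles, had controls of 2563, 629 and 841 and knockdowns of 3015, 2498 and 2241. It rose by 1.22 (SE 0.33, adjusted p = 0.00646 in the same fit), with knockdowns 2 and 3 just under control 1. Nek2, which separates the centrosomes, was at 2993, 690 and 886 in controls, against 3326, 2734 and 2893 in knockdowns (1.29, SE 0.34, adjusted p = 0.00593).

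In the chromosomal passenger complex, which corrects faulty attachments at the centromere, 3 of 4 genes rose. Birc5 (survivin) had the lowest adjusted p of all members and the highest pair 1 change, 1.31-fold. It read 3362, 724 and 896 normalised counts in controls 1, 2 and 3, then 4404, 2832 and 2418 in knockdowns 1, 2 and 3 (1.26, SE 0.30, adjusted p = 0.00182 in DESeq2 with the term). The scaffold Incenp was at 4365, 1921 and 1844 in controls, against 5513, 4302 and 3644 in knockdowns, the 1 member in which control 3 was the lowest library. It rose by 0.83 (SE 0.22, adjusted p = 0.00709 in the same fit). Cdca8 (borealin) had control values of 3171, 970 and 1019 and knockdown values of 3886, 2558 and 2256 (0.95, SE 0.26, adjusted p = 0.0076). The kinase Aurkb itself missed the threshold, with 0.85 (SE 0.30, adjusted p = 0.0645 in DESeq2 with the term) and 0.98-fold in pair 1.

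Of 6 spindle checkpoint and APC/C genes, the 2 that act with the APC/C and the kinase-like Bub1b rose. Cdc20, the APC/C activator, read 5986, 1255 and 1664 normalised counts in controls 1, 2 and 3, then 6466, 5042 and 5414 in knockdowns 1, 2 and 3. Knockdowns 2 and 3 were thus over 3-fold above their own controls and still below control 1 (1.29, SE 0.35, adjusted p = 0.00649 in DESeq2 with the term). Ube2c, its ubiquitin-conjugating enzyme, did not overlap between groups, with controls at 5416, 1889 and 2234 and knockdowns at 6996, 6197 and 5475. It rose by 1.13 (SE 0.28, adjusted p = 0.00226 in the same fit) and by 1.13 (SE 0.39, adjusted p = 0.643) in limma without the term. The checkpoint kinase Bub1 was at 0.66-fold in pair 1, the lowest of all members, and at 2.28-fold and 2.03-fold in pairs 2 and 3. Bub1, the checkpoint kinase Ttk (Mps1) and Mad2l1 (Mad2), which binds Cdc20, did not pass DESeq2 with the term (adjusted p of 0.419, 0.107 and 0.142).

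All 5 centromere and kinetochore genes rose, 2 of them close to the threshold (Ndc80 at an adjusted p of 0.0498 and Cenpe at 0.0463 in DESeq2 with the term). Cenpa, the histone H3 variant that marks centromeres, had normalised counts of 3134, 1055 and 1131 in controls 1, 2 and 3, then 3545, 3098 and 2899 in knockdowns 1, 2 and 3 (1.03, SE 0.29, adjusted p = 0.0105 in the same fit). Control 1 lay within the knockdown range. Cenpf, a large kinetochore protein, was at 2351, 597 and 805 in controls, against 2469, 2144 and 1929 in knockdowns, a change of 1.06 (SE 0.33, adjusted p = 0.0237). Nuf2, a microtubule-binding partner of Ndc80, changed by 0.89 (SE 0.30, adjusted p = 0.045).

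Among 6 kinesins of spindle and chromosomes 4 rose, Kif2c, Kif18b, Kif22 and Kif4. Kif2c (MCAK), which takes microtubules apart at centromeres, was higher in each knockdown than in any control. Knockdowns 1, 2 and 3 had 1623, 1658 and 1553 normalised counts, against 1310, 440 and 542 for controls 1, 2 and 3 (1.25, SE 0.32, adjusted p = 0.00408 in DESeq2 with the term). Kif18b, which limits the length of astral microtubules, read 994, 269 and 329 in controls, against 1141, 849 and 922 in knockdowns (1.11, SE 0.32, adjusted p = 0.013). Kif11, the motor that pushes spindle poles apart, and Kif15, which acts beside it, missed the threshold, with log2 changes of 0.67 (SE 0.32, adjusted p = 0.215) and 0.62 (SE 0.28, adjusted p = 0.177) in the same fit. Both were below their control in pair 1, at 0.81-fold and 0.98-fold.

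Of the spindle proteins Tpx2, Nusap1 and Hmmr only Tpx2, the activator of Aurka, rose. Its knockdown libraries stood together at 4479, 4314 and 4286 normalised counts, above all controls at 3956, 1549 and 1820 (0.97, SE 0.28, adjusted p = 0.0123 in DESeq2 with the term). Hmmr, a spindle pole protein, read 2257, 557 and 777 in controls 1, 2 and 3, then 1986, 1557 and 2453 in knockdowns 1, 2 and 3. It was lower in pair 1 and did not pass (1.00, SE 0.35, adjusted p = 0.0591), and neither did Nusap1 (0.70, SE 0.29, adjusted p = 0.119).

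Central spindle and cytokinesis genes had the lowest median limma change of the role groups, 0.60, and 2 of 7 rose. Racgap1, a subunit of centralspindlin, read 4868, 1363 and 1598 normalised counts in controls 1, 2 and 3, then 5382, 3638 and 3979 in knockdowns 1, 2 and 3 (0.96, SE 0.28, adjusted p = 0.0143 in DESeq2 with the term). Kif20a, the kinesin that carries the passenger complex to the midzone, was at 2548, 620 and 886 in controls, against 2552, 1999 and 2226 in knockdowns (1.01, SE 0.33, adjusted p = 0.0309). The exons of Kif20a overlap those of Cdc23 on the opposite strand over 29.3% of their length, and the library kit named in the labels does not mark strand, so reads from the overlap cannot be told apart. Smaller overlaps of this kind touch 9 other members, of which Kif4 (15.1%), Ccna2 (12.5%) and Prc1 (11.1%) have the most. Summed over the 7 genes, the level was 0.89-fold in pair 1 and 2.15-fold and 2.14-fold in pairs 2 and 3. In pair 1 Anln (anillin, 0.70-fold), Ect2 (needed to form the cleavage furrow, 0.74-fold) and Prc1 (the midzone bundling protein, 0.76-fold) were, after Bub1, the lowest of the 42, and none of the 3 passed (adjusted p of 0.322, 0.42 and 0.276). Whether the role groups differ was not tested.

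Per exon length, the members spanned a wide range. Levels are RPKM (reads per kb of exon, scaled to the gene reads of the library), computed from the recovered reads, and each comparison here is of levels. Cdc20 had the highest mean over the 6 libraries on this scale, at 127, 24.4 and 32.3 in controls 1, 2 and 3, then 133, 95.6 and 108 in knockdowns 1, 2 and 3. Ube2c, which was above Cdc20 in control 2 (26.3), followed at 46.8 ± 31.3 (SD, n = 3) in controls and 88.9 ± 13.1 in knockdowns. Cdc20 stood at 61.4 ± 57.3 and 112 ± 19.2, and the difference between these genes was not tested. Lowest was Kif15 at 2.16 ± 1.61 and 2.85 ± 0.86, below Cenpf at 3.12 ± 2.56 and 5.25 ± 0.80. Control 1 stood beside the knockdowns here too, and for Plk1 the control mean of 37.9 carried an SD of 40.5. Annotated exons were joined for the length, so genes with long rare exons read low.

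**Figure D4:**
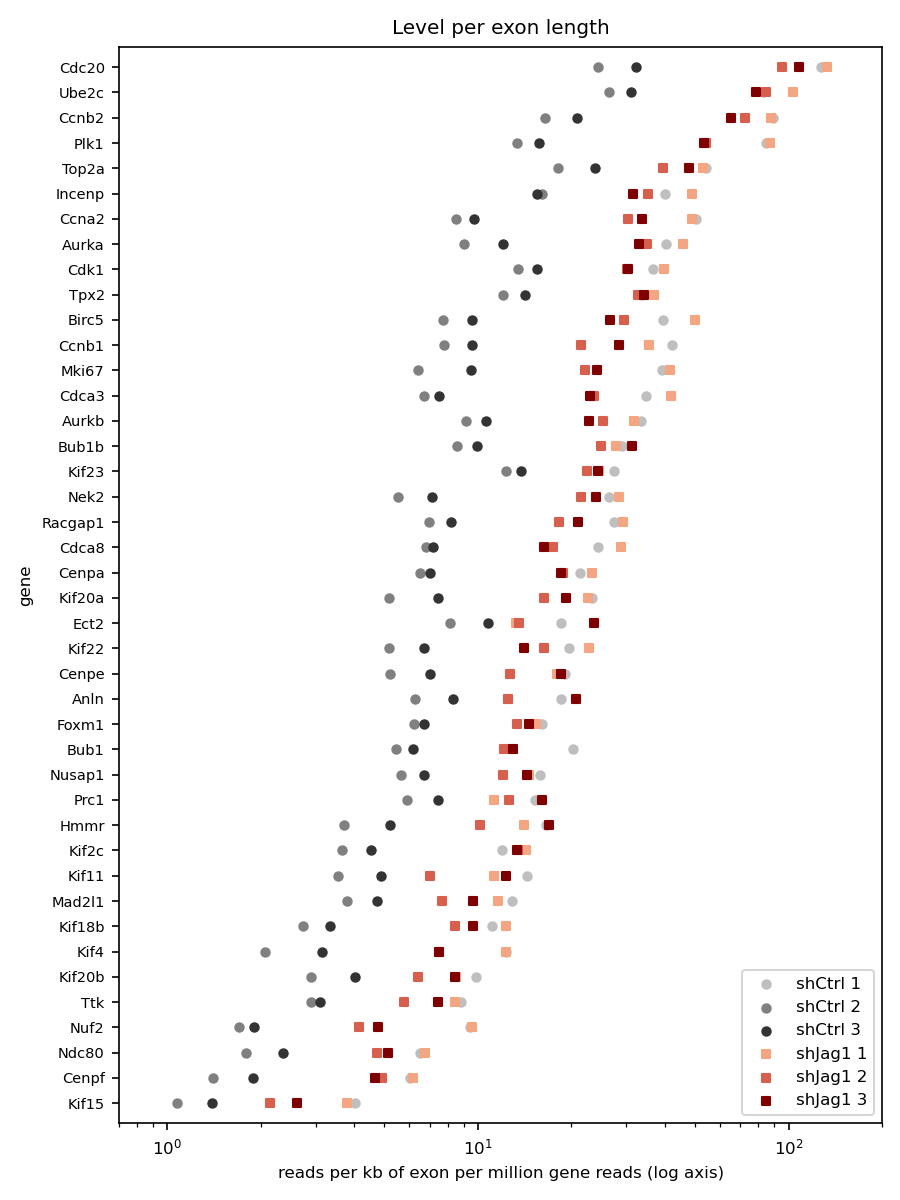
RPKM, the reads per kb of exon scaled to the gene reads of the library (horizontal axis, log scale), for each gene (vertical axis, ordered by mean), with 1 point per library. Controls 2 and 3 sit left of the other 4 libraries for all 42 genes, from Kif15 to Cdc20.

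Other genes of mitosis shared the pattern in part. The counts below stand beside 4.54% of all tested genes called higher and 2.62% called lower in DESeq2 with the term. Of 29 other spindle, centrosome and cytokinesis genes 12 rose and 0 fell (median limma change 0.86), among them Tacc3, a spindle microtubule protein, by 1.23, Gtse1 by 1.15 and the kinesin Kif14 by 1.13, with adjusted p of 0.00113 to 0.0326 in DESeq2 with the term. Of 18 Cdk1 regulators and late cell cycle transcription genes 8 rose and 0 fell (median 0.62), led by Ccnf (cyclin F) at 1.45, the phosphatase Cdkn3 at 1.40 and Cdc25c, which activates Cdk1, at 1.15. Of 30 other kinetochore and centromere genes 3 rose and 0 fell (median 0.51): Spc25 and Spc24, partners of Ndc80 and Nuf2, by 1.24 and 1.02, and Pmf1 by 0.65. Condensin and cohesin genes had 3 of 20 higher and 0 lower (median 0.33), the separase inhibitor securin (Pttg1) at 1.02, the condensin subunit Ncapd2 at 0.88 and sororin (Cdca5) at 0.71. The other 22 checkpoint and APC/C genes, most of them APC/C subunits, were near the background (median 0.15): Fbxo5, an APC/C inhibitor, rose by 0.72 and the subunit Cdc23 fell by 0.59 (adjusted p = 0.0337 in DESeq2 with the term). For Cdc23 the overlap with Kif20a applies too.

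Compared with the mitosis genes, DNA replication genes differed by less within pairs 2 and 3. Between knockdown 1 and knockdowns 2 and 3 they differed by more. Summed, they held 105805, 51314 and 53739 normalised counts in controls 1, 2 and 3, against 110711, 76936 and 72378 in knockdowns 1, 2 and 3. Knockdowns 2 and 3 were thus 1.50-fold and 1.35-fold above their controls, against 2.74-fold and 2.37-fold for the mitosis genes. They reached 69.5% and 65.4% of knockdown 1, against 79.3% and 84.6%. In DESeq2 with the term 3 of 40 rose (7.5%) and 0 fell, where 4.54% of all tested genes were called higher and 2.62% lower. Those called were the ribonucleotide reductase subunits Rrm2 (1.22) and Rrm1 (0.69) and the ligase Lig1 (0.82). The difference between these lists was not tested.

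Cell cycle exit genes, such as inhibitors of cyclin-dependent kinases, had another order. Their summed normalised counts were lowest in replicate 1, at 22333 in control 1 and 23144 in knockdown 1, then 39163 and 37674 in controls 2 and 3, and highest in knockdowns 2 and 3, at 50517 and 44864. Of 16 genes 2 rose (12.5%) and 0 fell in DESeq2 with the term, beside 4.54% and 2.62% of all tested genes. Ccng2 (cyclin G2), a cyclin of cells that stop dividing, read 271, 1990 and 1733 in controls 1, 2 and 3, then 318, 5239 and 4956 in knockdowns 1, 2 and 3 (1.06, SE 0.28, adjusted p = 0.00591). Gadd45b rose by 0.90 (SE 0.22, adjusted p = 0.0025). In knockdowns 2 and 3 the sums of exit genes and of mitosis genes were thus both above those in controls 2 and 3. The exit genes were mixed: of the 16, 5 were lower in pair 2 and 3 in pair 3, against 0 of the 42 mitosis genes in either.

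**Figure D5:**
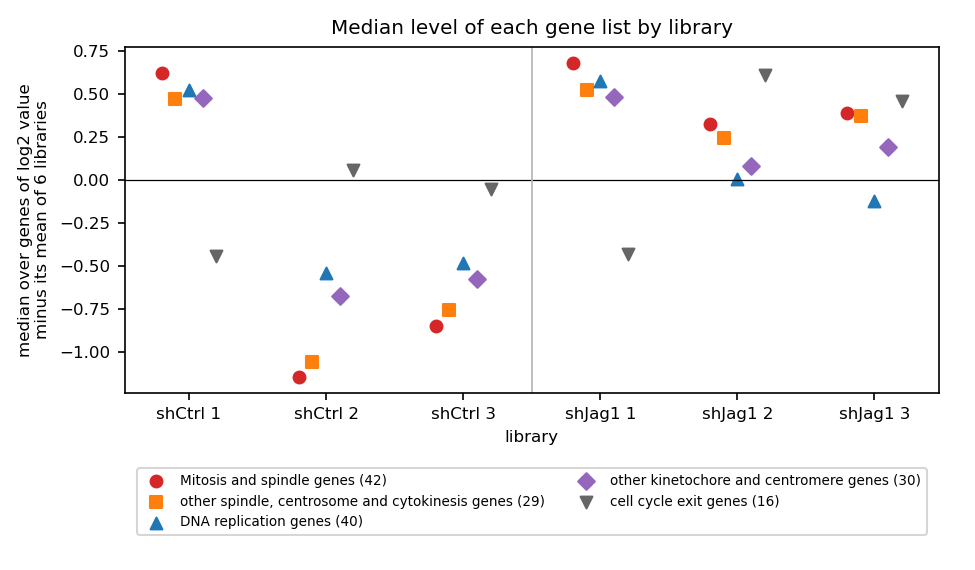
Median over the genes of a list (vertical axis, log2 of the normalised count plus 1 minus the gene's mean over 6 libraries) in each library (horizontal axis), for 5 lists with the number of genes in brackets. The mitosis and spindle genes fall to -1.15 and -0.85 in controls 2 and 3, and DNA replication genes to -0.54 and -0.48.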

How the data were processed

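Per the file headers and the labels, the authors deposited normalised counts for 6 libraries, used here as a signal: reads over a size factor that is constant within a library. On the values this was checked, since 100% of them were whole multiples of 1 step within 0.001 of a read. The submitters' processing notes name Trimmomatic, STAR 2.5.2b, DESeq2 1.32.0 and GRCm38; the counting tool and annotation are not given in the sources used here. All 6 deposited tables were identical and 1 was used, with 14254 genes and 48 spike-in RNAs. Symbols, positions and exon lengths came from GENCODE M21. The members and gene lists were chosen with earlier results of these data known.

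The main test was limma-trend (limma 3.58.1, R 4.3.3) on log2 of the normalised count plus 1, over 13997 genes with at least 10 in at least 3 libraries, with p-values adjusted by Benjamini-Hochberg and called under 0.05. Fold changes on that scale are slightly understated at low counts. Whole reads were recovered for edgeR 4.0.16 and DESeq2 1.42.0 as alternatives. On simulated counts limma, edgeR and DESeq2 were run, each with and without the replicate term. The pass limit there was set on the median recovered change alone. Fits with other scaling or with libraries left out were not simulated. Deviations from group means correlated at r = 0.68, 0.57 and 0.44 between libraries with the same number, so the numbers were treated as pairs. What the numbers mark is not in the labels. Control 3 with knockdown 2 (0.38) and control 2 with knockdown 3 (0.37) also correlated. The correlations thus set replicate 1 apart, but tell numbers 2 and 3 apart only weakly. Each p-value sets a group difference against the spread between these libraries, or, with the replicate term, between the changes in these pairs.

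Named were Jag1, Mki67, Top2a, Foxm1, Cdk1 and Ccnb1, the 2 members of each role group with the largest limma change, and the 15 members with the lowest adjusted p in DESeq2 with the replicate term. Of each other list the 3 called genes with the largest change were named. Members outside this rule were named after their values were seen.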

Additional observations from a re-analysis of the deposited data

How the results depend on the processing

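With limma as the main test, 0 members were called higher. This became 26 in DESeq2 with the replicate block, 42 in that fit without pair 1, 40 in limma on replicates 2 and 3 only, and 0 to 29 when 1 library was left out. Over the 7 other gene lists the count of genes called higher went from 0 to 32, 80 and 59 in the first 3 of these settings and to between 0 and 24 when 1 library was left out, and the count called lower from 0 to 1 in DESeq2 with the block, with and without pair 1. The replicate block in limma or edgeR changed no call of a member. Jag1 passed only in DESeq2 with the replicate block, at -1.02 (adjusted p = 0.00637), and at -1.10 without pair 1. The members' median log2 change ran from 0.57 without control 2 to 1.53 without control 1. Of the 552 values of the 24 named members under 23 alternatives, 0 changed sign. Most of these members were named for a large change or a low adjusted p, and the alternatives refit the same libraries. The count is thus no independent check. The DESeq2 fit with spike-in scaling was added after seeing the data. Each group has 3 libraries, which limits every test here.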
